A study of Mus musculus with 4 samples.

Results

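The quantity described here is the difference between the estradiol responses of Chd7 knockout and wild-type G1ER cells, gene by gene. For each gene the response of the wild type (24 h minus 0 h) was subtracted from the response of the knockout, on log2(FPKM + 1), where FPKM is the number of fragments per kilobase of transcript and per unit of mapped fragments. A positive difference means that the gene ended higher, relative to its start, in the knockout. All 4 libraries of the series enter every value, with 1 library per group. Of 23936 gene rows in the deposited table, 10411 had a 0 in every library, and the genes described are the 8964 rows whose 4 values average 1 FPKM or more. Of these, 568 are small RNA or predicted loci and 8396 are other genes.

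The cells were mouse G1ER erythroblasts, either wild type or Chd7-/-, each at 0 h and after 24 h of beta-estradiol. All 4 groups grew in medium with EPO and SCF-conditioned medium, and all carry the GATA1 fusion on which the line depends. All 4 libraries carry estradiol as their treatment label, so time was taken from the titles. The labels do not say how many clones the knockout line comprises, so a feature of a clone and an effect of the genotype cannot be told apart. The design text names the effect of CHD7 loss on erythroid maturation as the question. The difference of responses asks which genes answered estradiol to a different extent in the knockout.

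G1ER cells lack GATA1, the zinc finger transcription factor that commits progenitors to the red cell lineage, and carry it as a fusion that acts when estradiol is added. GATA1 then takes over sites that GATA2 held, progenitor genes such as Kit and Gata2 are shut down, and genes for globin, heme and the red cell membrane are switched on. CHD7 is a chromodomain helicase that slides nucleosomes at enhancers. RUNX1, named with CHD7 in the title of the series, is a transcription factor of blood progenitors.

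Depth, read from the FPKM steps worth 1 fragment, was about 14.8 M fragments (M, mega) at 0 h and 17.4 M at 24 h for wild type, and 14.8 M and 15.5 M for the knockout. These depths hold only if each library was scaled by its own total, which is not stated. FPKM summed to 923195 and 780536 for wild type and to 1604981 and 753591 for the knockout, and small RNA and predicted loci held between 28.9% and 68.7% of these sums. Chd7 itself (chromosome 4, 8690402 to 8868449, GRCm38) was listed at 0 in all 4 libraries, wild type included, so its row does not check the knockout labels. With 1 library per group no test was possible. The value after ± is a 95% half-width of the difference from counting error alone, which says nothing of the spread between cultures. Lymphoid markers had 0 of 19 members measured and macrophage and dendritic markers 1 of 16. Hbb-b1 (326 FPKM in wild type, 528 in the knockout) and Cpox (171 and 172) were abundant already at 0 h. The measured globin, heme and membrane genes were all higher at 24 h in both genotypes. Some of them, such as Slc4a1 (0.102 and 0.235 FPKM at 0 h), passed the filter only through their 24 h values, so that rise does not check the erythroid label. Of the membrane genes, Aqp1, Slc2a4 and Slc43a1 were listed at 0 in all 4 libraries.

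The promoters of 4 genes frame the results, because GATA1 binds the motif searched in them. They are shown from 250 bases before an annotated start to 50 after it, as RefSeq gives them on GRCm38.p6, 5′ to 3′ on the strand of the gene. Csf2rb2 lies at chr15:78305672-78305971 on the minus strand and Alas2 at chrX:150547167-150547466 on the plus strand. Flna lies at chrX:74246485-74246784 on the minus strand and Kit at chr5:75574737-75575036 on the plus strand. The Flna window lies inside the span of the gene (74223461 to 74249854), so it does not describe the promoter at the outer end of that span. Capitals mark a GATA motif (AGATAA, the same with T first as TGATAA, or either with a final G as AGATAG and as TGATAG, on both strands). Csf2rb2 and Alas2 are genes with a higher response in the knockout, Flna and Kit genes with a lower one.
Csf2rb2: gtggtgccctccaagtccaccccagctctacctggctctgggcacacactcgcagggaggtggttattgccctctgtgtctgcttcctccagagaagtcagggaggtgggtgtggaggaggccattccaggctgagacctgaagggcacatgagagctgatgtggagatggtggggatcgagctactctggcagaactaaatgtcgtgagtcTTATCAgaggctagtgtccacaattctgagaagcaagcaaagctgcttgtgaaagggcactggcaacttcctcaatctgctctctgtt
Alas2: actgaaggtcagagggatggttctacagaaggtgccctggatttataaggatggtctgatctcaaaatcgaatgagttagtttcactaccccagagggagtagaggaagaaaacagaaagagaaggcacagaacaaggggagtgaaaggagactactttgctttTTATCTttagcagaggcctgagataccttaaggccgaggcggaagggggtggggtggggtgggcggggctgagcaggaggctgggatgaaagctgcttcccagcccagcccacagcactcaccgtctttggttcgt
Flna: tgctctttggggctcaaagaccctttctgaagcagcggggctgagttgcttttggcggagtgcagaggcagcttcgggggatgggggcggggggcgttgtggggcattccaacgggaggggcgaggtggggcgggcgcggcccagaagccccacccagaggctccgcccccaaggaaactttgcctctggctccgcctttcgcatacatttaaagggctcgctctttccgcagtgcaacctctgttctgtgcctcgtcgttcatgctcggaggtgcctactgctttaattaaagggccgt
Kit: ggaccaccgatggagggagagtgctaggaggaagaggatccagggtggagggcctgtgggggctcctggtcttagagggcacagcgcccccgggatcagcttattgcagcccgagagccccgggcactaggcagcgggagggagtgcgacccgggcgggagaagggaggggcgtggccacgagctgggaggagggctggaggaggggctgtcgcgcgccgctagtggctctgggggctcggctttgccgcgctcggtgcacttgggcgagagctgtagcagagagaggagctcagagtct

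The Csf2rb2 window held 1 GATA motif, on the opposite strand and 38 bases before the start, and the Alas2 window 1, on the opposite strand and 86 bases before it. The Flna and Kit windows held no such letters, and none of the 4 held a RUNX motif (TGTGGT or TGCGGT). Dmtn and Csf2rb are not in the promoter table. Among genes with a difference of at least 1, 10 of 31 matched promoters (32.3%) held a GATA motif, and among those at -1 or below 4 of 21 (19%). The share was 17.6% over the 6557 promoters of measured genes and 30.2% over all 27025 promoters. The RUNX motif was in 4 of 31 (12.9%) and 5 of 21 (23.8%) of these promoters, against 21% of those of measured genes. A match of letters is a description and no binding site.

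The 4 marker genes of the comparison show its 2 directions. Dmtn (chromosome 14, 70602184 to 70636048), which encodes dematin, an actin-bundling protein of the red cell membrane skeleton, went from 0.238 FPKM at 0 h to 4.99 at 24 h in wild type and from 0.168 to 11.9 in the knockout. It started low in both genotypes and ended highest in the knockout, with responses of 2.28 and 3.47 and a difference of 1.19 ± 0.22. Csf2rb2 (chromosome 15, 78282507 to 78305721), a mouse beta chain of the interleukin-3 receptor, went from 0.422 to 6.04 FPKM in wild type and from 0.788 to 38.7 in the knockout, a difference of 2.16 ± 0.26. Again the knockout at 24 h was far above the other libraries.

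Flna (chromosome X, 74223461 to 74249854), the actin crosslinker filamin A, went from 62.9 to 22.3 FPKM in wild type and from 50.03 to 5.39 in the knockout. The gene was lower at 24 h in both genotypes and lowest in the knockout, with responses of -1.457 and -2.997 and a difference of -1.54 ± 0.11. Kit (chromosome 5, 75574987 to 75656722), the receptor for stem cell factor, went from 39.4 to 20.4 FPKM in wild type and from 61.3 to 17.1 in the knockout. Its difference was -0.86 ± 0.11, and the knockout was 0.63 above wild type at 0 h and 0.24 below it at 24 h on the log2 scale. The genes of chromosome 5, where Kit lies, had a median gap of 0.40 at 0 h and 0.34 at 24 h.

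**Figure D1:**
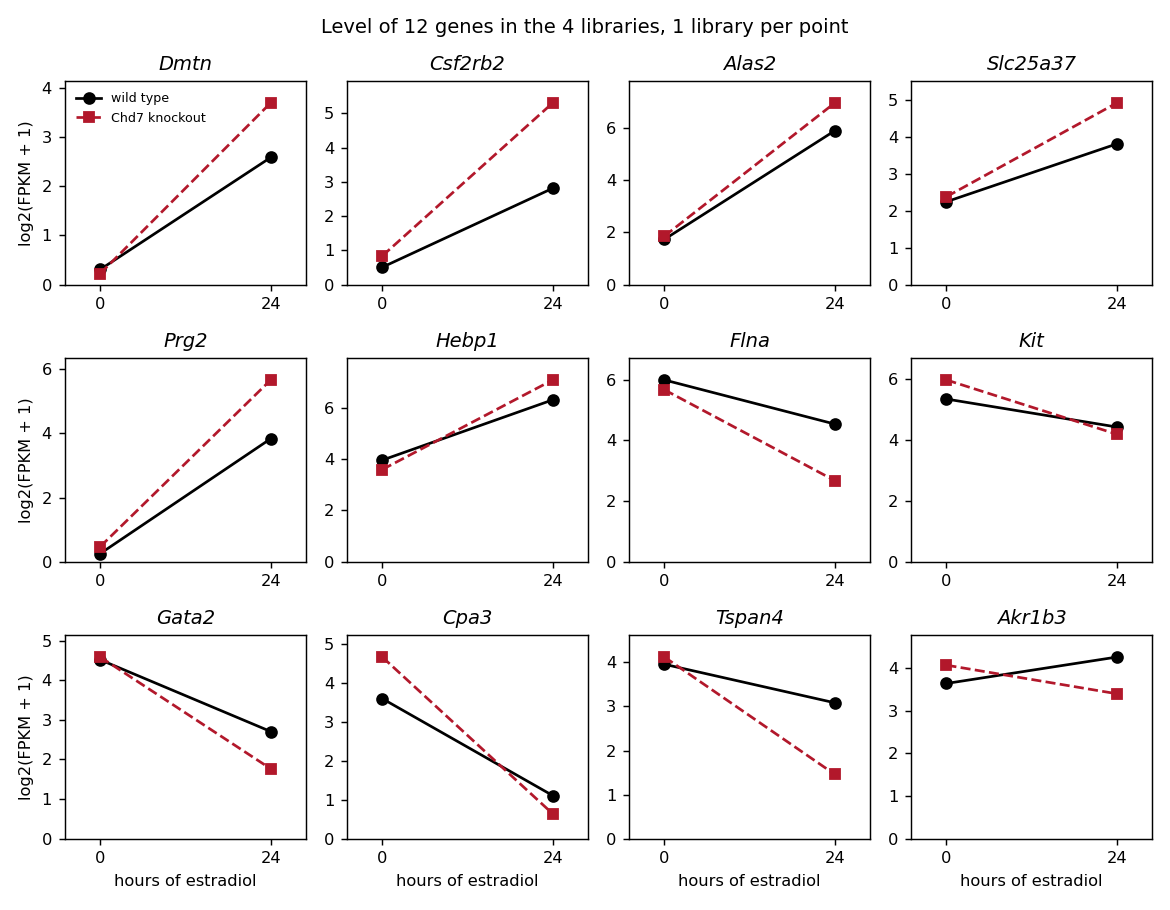
Level of 12 genes, log2(FPKM + 1) on the vertical axis against hours of estradiol, with 1 library per point (black circles and solid lines, wild type; red squares and dashed lines, knockout). In the 6 genes from Dmtn to Hebp1 the knockout line is steeper upward and in the 6 from Flna to Akr1b3 steeper downward, Akr1b3 alone being higher at 24 h in wild type.

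Over the 8964 genes the difference had a median of -0.02, and its values from the 5th to the 95th percentile ran from -0.47 to 0.49. A difference of at least 1 was reached by 54 genes (0.602%) and a difference of -1 or below by 56 (0.625%). At a threshold of 0.5 these counts were 418 (4.66%) and, at -0.5 or below, 371 (4.14%). A difference above 0 was found in 4147 genes (46.3%). Higher calls were 49.1% of those past a size of 1 with the deposited FPKM and 98.2% (1332 higher, 24 lower) when each library was scaled to the same sum (the unit TPM). That scaling moved the median of all genes to 0.72, so a sign not taken relative to that median depends on the scaling. The library with the largest sum was the knockout at 0 h, with 68.7% of it in small RNA and predicted loci. Differences and counts above 0 are given on the deposited FPKM, and the relative median of a list is its median minus that of all genes.

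Without small RNA and predicted loci, 42 genes were higher and 30 lower by at least 1. The Snor and Scarna loci among those left out were far more scattered: 7 of 47 were at 1 or more and 14 at -1 or below. At the edges of the rule, Lrrc57 (1.01) and Tulp2 (1.01) lay just inside and Tbc1d24 (0.999) and Dqx1 (0.996) just outside. On the lower side Cmtm7 (-1.001) and Endog (-1.01) lay just inside and Slc30a2 (-0.97) and Hsd17b14 (-0.96) just outside.

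**Figure D2:**
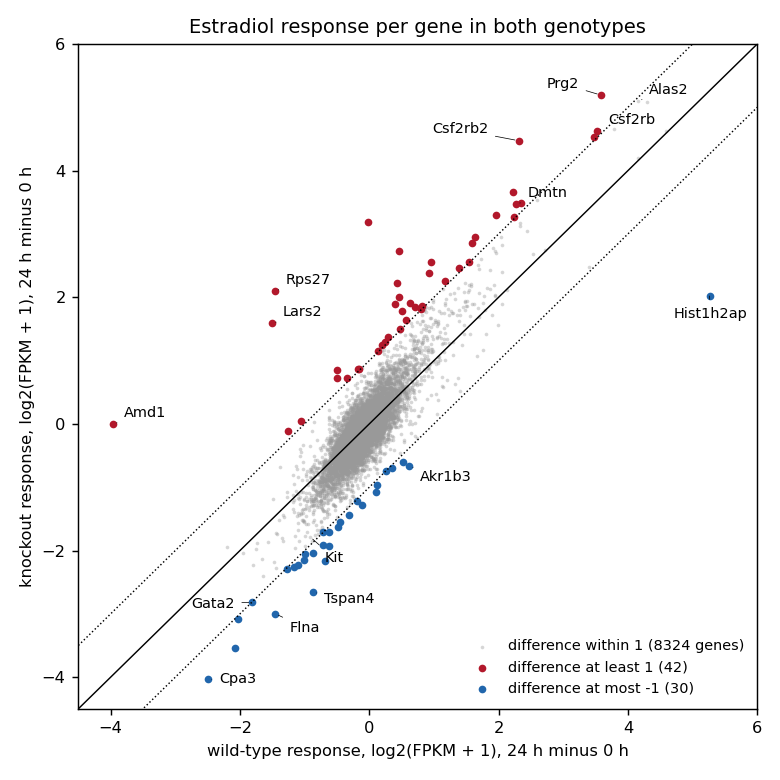
Response of each gene to estradiol, 24 h minus 0 h in log2(FPKM + 1), in wild type (horizontal) and knockout (vertical), for 8395 genes that are no small or predicted loci, with 1 gene outside the axes. The solid line marks equal responses and the dotted lines a difference of 1 either way. Of the genes past the lines, 42 are red (above) and 30 blue (below), and most of them extend the direction that wild type took.

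Most of these genes went in the same direction in both genotypes and went further in the knockout. Of the 42 higher genes, 31 were higher at 24 h in both genotypes, with median responses of 0.93 (wild type) and 2.39 (knockout). The 5 most abundant were Hebp1 (a heme-binding protein), Csf2rb, Cldn13 (a claudin), Atp8a1 (a phospholipid flippase) and Suv420h2 (a histone methyltransferase). Hebp1 went from 14.5 to 77.8 FPKM in wild type and from 11.02 to 133.7 in the knockout, a difference of 1.14 ± 0.28, and was the reverse of Kit in starting lower in the knockout. Another 9 genes had a response below 0 in wild type and above 0 in the knockout, and 2 had both below 0, less so in the knockout. These counts go by sign alone, and they hold Pisd-ps1, which was near 0 FPKM at both times in wild type, and Amd1, which was near 0 at both times in the knockout.

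The lower side mirrored this, with 22 of 30 genes lower at 24 h in both genotypes and more so in the knockout, at median responses of -0.87 and -2.10. Among its most abundant genes were Cmtm7, Spn (leukosialin, a surface mucin), Flna and Sept9 (a septin). Spn went from 89.8 to 44.6 FPKM in wild type and from 79.4 to 18.4 in the knockout, a difference of -1.06 ± 0.11. Sept9 went from 34.6 to 20.7 in wild type and from 39.3 to 9.75 in the knockout (-1.19 ± 0.15). For both, the knockout at 24 h was the lowest library and the genotypes were close at 0 h. A further 7 genes had a response above 0 in wild type and below 0 in the knockout, Hist1h4n with knockout values near 0 FPKM at both times among them, and 1 was higher in both, less so in the knockout.

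The difference of responses equals the gap between genotypes at 24 h minus the gap at 0 h. The gap was larger in size at 24 h than at 0 h for 34 of 42 higher genes (81.0%) and 25 of 30 lower genes (83.3%), against 62.5% of all genes apart from small RNA and predicted loci. Since the genes were chosen on the difference between these gaps, nothing is read from their shares. In the higher genes the median gap, knockout minus wild type, was -0.20 at 0 h and 0.98 at 24 h, and in the lower genes 0.12 and -1.05. Over all genes it was -0.07 and -0.09.

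**Figure D3:**
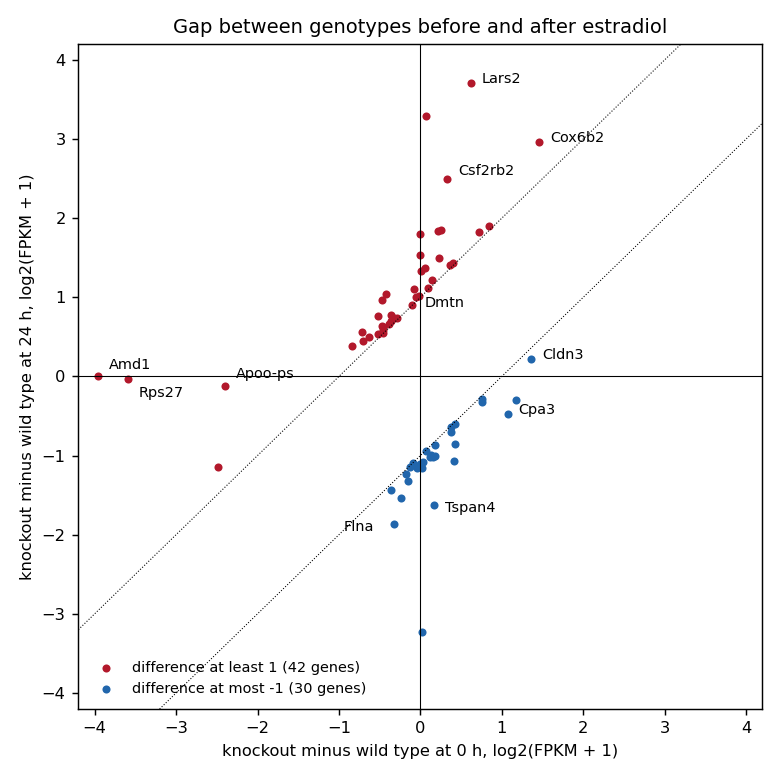
Gap between genotypes, knockout minus wild type in log2(FPKM + 1), at 0 h (horizontal) and 24 h (vertical), for 71 of the 72 genes past a size of 1 (red, 42 higher; blue, the lower ones), with 1 lower gene outside the axes. Counting that gene, 34 higher and 25 lower genes lie farther from 0 on the vertical than on the horizontal axis, while Amd1, Rps27 and Apoo-ps lie near the horizontal line, their gap being at 0 h.

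The difference was graded with the size of the response. Averaged over the genotypes, 39 genes had a response of 2 or more, and among them the median difference was 0.85 and 89.7% were above 0. It was 0.43 for the 54 genes from 1.5 to 2, 0.53 for the 112 genes from 1 to 1.5 and 0.29 for the 417 genes from 0.5 to 1. The 6663 genes between -0.5 and 0.5 had a median of -0.01. Below that it was -0.22 for 962 genes, -0.42 for 122 genes and -0.76 for the 27 genes under -1.5, of which 7.41% were above 0. The median gap at 0 h stayed between -0.09 and 0.07 in every bin, while the gap at 24 h ran from -0.60 to 0.95. Mean and difference come from the same 4 libraries and the knockout responses spread more widely (5th to 95th percentile -0.90 to 0.83, against -0.64 to 0.56 in wild type), so the gradient is given as a description.

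**Figure D4:**
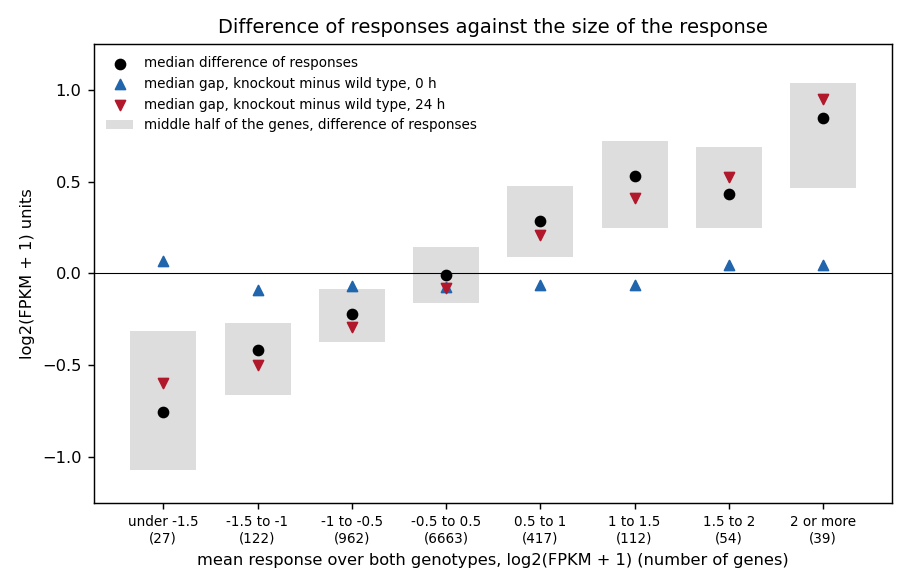
Difference of responses (black, median; grey bars, interquartile range) and median gap between genotypes at 0 h (blue) and 24 h (red), all in log2(FPKM + 1) units, for genes grouped by their mean response to estradiol. The blue triangles stay between -0.09 and 0.07, while the red triangles and the black points go from below 0 on the left to above 0 on the right.

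Genes of heme synthesis and its transport had, in the median, the larger response in the knockout. Of 14 measured members 13 had a difference above 0 and 7 a difference of at least 0.5, with a median of 0.47 relative to all genes. Alas2 (chromosome X, 150547417 to 150570622), the erythroid enzyme that opens the pathway, went from 2.32 to 58.3 FPKM in wild type and from 2.62 to 123 in the knockout (0.94 ± 0.34). Slc25a37, the mitochondrial iron importer mitoferrin, went from 3.72 to 13.0 in wild type and from 4.19 to 29.1 in the knockout (0.97 ± 0.23). Both genes were near equal at 0 h and about 1 log2 unit higher in the knockout at 24 h, with gaps of 1.07 and 1.11.

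Further along the pathway, Uros, the synthase that closes the porphyrin ring, went from 15.4 to 28.6 FPKM in wild type and from 11.4 to 41.5 in the knockout (0.93 ± 0.24). Abcb10, a mitochondrial transporter that binds mitoferrin, went from 24.8 to 128 in wild type and from 23.5 to 219 in the knockout (0.85 ± 0.11). Other members of the same list differed less. Cpox, the coproporphyrinogen oxidase, had a difference of -0.01 ± 0.05, with 339 and 340 FPKM at 24 h. Fech, which inserts the iron, had 0.24 ± 0.06, and Abcb6 0.11 ± 0.15, the last within its counting half-width.

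All 19 measured genes of the red cell membrane and skeleton had a difference above 0, and 8 reached 0.5, with a relative median of 0.37. Their median gap was 0.06 at 0 h and 0.67 at 24 h. Besides Dmtn, Stom (stomatin, 0.95 ± 0.22), Tspan33 (0.79 ± 0.23), Slc4a1 (0.78 ± 0.19) and Sptb (0.73 ± 0.06) were at the top. Slc4a1, the anion exchanger band 3, went from 0.102 to 20.6 FPKM in wild type and from 0.235 to 40.7 in the knockout, and Sptb, beta-spectrin, from 33.2 to 132 and from 34.3 to 227. In Sptb, the most abundant of these 5 genes, the gap was 0.05 at 0 h and 0.78 at 24 h. At the low end stood Rhag (0.08 ± 0.13), Ank1 (ankyrin, 0.08 ± 0.14) and Rhd (0.15 ± 0.25), none beyond its counting half-width. Ank1 was already 0.61 higher in the knockout at 0 h and 0.70 higher at 24 h.

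Globins lay close to all genes. Of 6 measured members 4 were above 0, and the relative median was 0.07. Hbb-b1 went from 326 to 7865 FPKM in wild type and from 528 to 13127 in the knockout, a gap of 0.69 at 0 h and 0.74 at 24 h and a difference of 0.04. The higher Hbb-b1 level of the knockout was thus present at both times and nearly cancels. Hbq1b was instead lower in the knockout at both times, with gaps of -0.46 and -0.61, and Hbb-bh1 had gaps of -0.001 and 0.15. Hba-a1 (0.87) and Hba-a2 (-0.93), near-identical copies, went in opposite directions. Summed, they went from 145 to 1931 FPKM in wild type and from 356 to 4196 in the knockout, a difference of -0.17, so the split between the copies is uncertain.

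Erythroid transcription factors and cofactors were higher by less, with 16 of 22 above 0, 4 at 0.5 or more and a relative median of 0.15. Mafk, the small partner protein of erythroid enhancer factors, went from 14.4 to 23.6 FPKM in wild type and from 18.7 to 49.1 in the knockout (0.68 ± 0.17). Bach1, a heme-regulated repressor, had 0.64 ± 0.23 and Zfpm1, the GATA1 cofactor FOG1, 0.57 ± 0.11. The Gata1 row went from 31.1 to 38.2 FPKM in wild type and from 46.7 to 63.7 in the knockout (0.15 ± 0.16). It was thus higher in the knockout at both times, with gaps of 0.57 at 0 h and 0.73 at 24 h. The cells carry GATA1 as a fusion, and the part of its fragments in this row was not tested, so the row is not read as the cells' own gene. The part of the Gata1 level in the differences of other genes was not tested. Lyl1 (-0.80 ± 0.16) and Tal1 (-0.43 ± 0.11), related helix-loop-helix factors, were on the other side of the same list. Lyl1 belongs to the progenitor list as well. Tal1 was the higher in the knockout at 0 h, at 43.5 against 40.4 FPKM, and the lower at 24 h, at 28.7 against 36.2. Iron uptake, storage and sensing genes lay near the median of all genes, with 5 of 13 above 0 and a relative median of 0.02. Among them Tfr2, a transferrin receptor and iron sensor, had a difference of -0.78 ± 0.14.

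**Figure D5:**
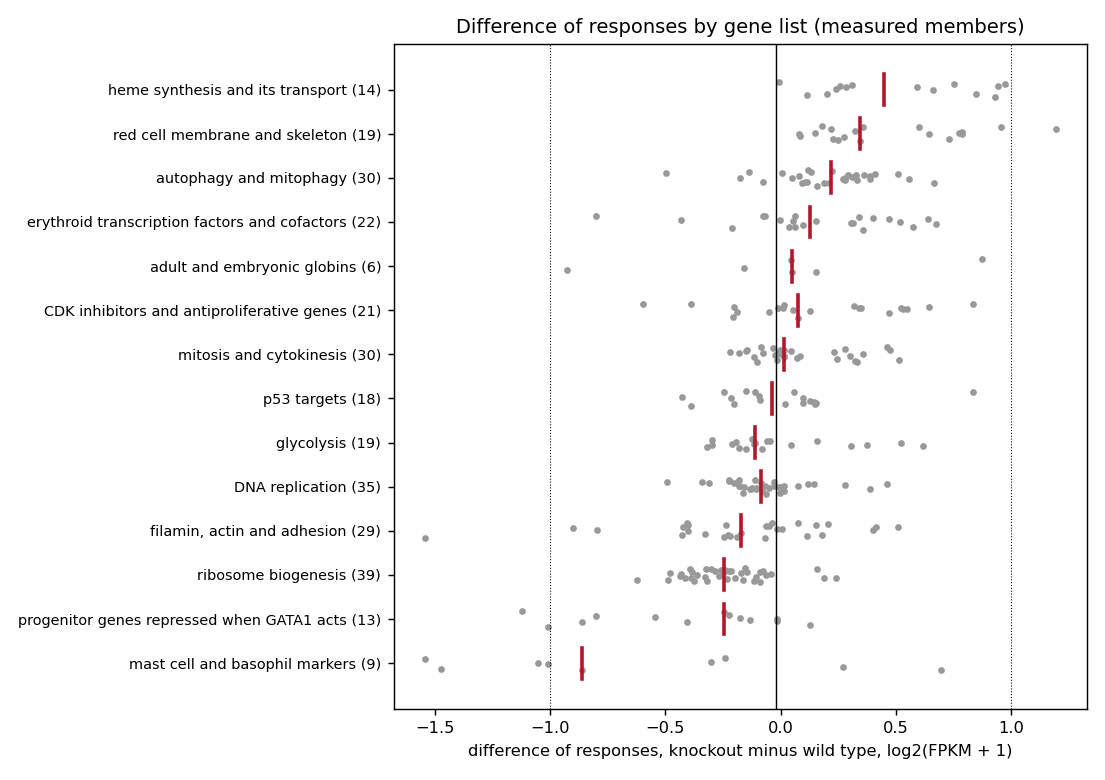
Difference of responses, knockout minus wild type in log2(FPKM + 1), for the measured members of 14 gene lists (grey points; red bars, list medians; solid line, median of all genes; dotted lines, -1 and 1). Heme and membrane genes lie to the right of the solid line and progenitor and mast cell genes mostly to the left, while mitosis, p53 and globin genes lie around it.

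Progenitor genes that GATA1 represses went the other way. Of 13 measured members 1 had a difference above 0 and 5 were at -0.5 or below, with a relative median of -0.22. Vim, the intermediate filament vimentin, went from 7.997 to 3.17 FPKM in wild type and from 7.76 to 0.865 in the knockout (-1.12 ± 0.38). Gata2 went from 21.9 to 5.53 in wild type and from 23.0 to 2.40 in the knockout (-1.01 ± 0.24). Both were equal between genotypes at 0 h within 0.07 log2 units and lowest in the knockout at 24 h. Myb, a progenitor transcription factor, had -0.41 ± 0.10. Spi1, which encodes the myeloid factor PU.1, was higher at 24 h in both genotypes by about the same amount, with a difference of -0.01 ± 0.23. Erg, another progenitor factor, was low in both genotypes at 24 h, at 0.417 and 0.470 FPKM (-0.23 ± 0.34).

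Mast cell and basophil markers had 9 of 18 members measured, of which 4 were at -1 or below and 2 above 0, with a relative median of -0.84, or -0.05 when the members under 1 FPKM are kept. The median gap of the measured members was 0.18 at 0 h and -0.30 at 24 h, and genes differed in the time at which the genotypes were apart. Cpa3, the mast cell carboxypeptidase, went from 11.2 to 1.16 FPKM in wild type and from 24.6 to 0.561 in the knockout (-1.54 ± 0.45). Ms4a2, the beta subunit of the high-affinity receptor for immunoglobulin E, went from 8.01 to 1.14 in wild type and from 19.4 to 0.742 in the knockout (-1.48 ± 0.37). Both genes were higher in the knockout at 0 h, by 1.07 and 1.18, and lower at 24 h, with gaps of -0.47 and -0.30. At 24 h their values were near 1 FPKM, where gaps look smaller on this scale. Il1rl1, an interleukin receptor of mast cells, parted after estradiol instead: it went from 17.2 to 3.47 in wild type and from 19.6 to 1.45 in the knockout (-1.05 ± 0.22). Srgn, going from 6.25 to 2.55 in wild type and from 6.35 to 4.83 in the knockout, was on the other side (0.69 ± 0.41). Slc18a2 (0.27 ± 0.37), Tph1 (-0.24 ± 0.28) and Hdc (-0.30 ± 0.44) lay within their counting half-widths. Summed over all rows of the list, FPKM went from 110.3 to 42.7 for wild type and from 159.6 to 33.5 for the knockout. Kit and Gata2 belong to this list and to the progenitor list, and Mcpt8, Mcpt4, Prss34 and Mitf were listed at 0 in all 4 libraries. The part that other cells in the cultures, or less RNA per cell, had in these values was not tested, and in bulk RNA fewer cells of a type and less RNA per cell cannot be told apart.

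Csf2rb2 had the highest difference in the list of beta chain and other cytokine receptors, followed by Csf2rb, a neighbouring and similar gene. Csf2rb, the beta chain shared by the receptors for interleukin-3, interleukin-5 and GM-CSF, went from 2.41 to 38.2 FPKM in wild type and from 4.63 to 138 in the knockout (1.11 ± 0.20). Summed with Csf2rb2 it went from 2.84 to 44.2 for wild type and from 5.42 to 177 for the knockout, a difference of 1.23, which does not depend on how fragments were split between them. Of the 11 measured receptors of this list 5 were above 0, with a relative median of -0.03. Il9r had 0.54 ± 0.16 and Il3ra, the alpha chain that pairs with both, -0.20 ± 0.37. Il4ra, going from 5.39 to 5.88 FPKM in wild type and from 7.86 to 4.74 in the knockout, had -0.73 ± 0.22.

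Eosinophil and granulocyte markers had 5 of 26 members measured, with 2 at 1 or more. Prg2, the eosinophil major basic protein, went from 0.192 to 13.2 FPKM in wild type and from 0.384 to 49.7 in the knockout (1.62 ± 0.51). Alox5, the lipoxygenase that makes leukotrienes, went from 5.12 to 1.55 in wild type and from 2.76 to 2.46 in the knockout (1.15 ± 0.37), which is a smaller decrease from a lower start. Cebpe, a granulocyte transcription factor, was on the other side (-0.57 ± 0.46). Summed over all rows of the list, measured or not, FPKM went from 12.7 to 29.5 for wild type and from 18.2 to 77.0 for the knockout. Elane, Mpo, S100a8 and S100a9 and 6 other members were listed at 0 in all 4 libraries, and the part of eosinophil-like cells in the Prg2 values was not tested.

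Megakaryocyte and platelet markers had 8 of 22 measured and split. Tbxas1, thromboxane synthase, went from 0.141 to 1.21 FPKM in wild type and from 0.355 to 6.93 in the knockout (1.60 ± 0.41), whereas Pf4, a platelet chemokine, went from 2.00 to 2.27 in wild type and from 2.91 to 0.998 in the knockout (-1.09 ± 0.87). The knockout at 24 h was the highest library for the first and the lowest for the second. Vwf, Fli1 and 6 other members were listed at 0 in all 4 libraries, and the sum over all rows of the list went from 37.3 to 56.3 FPKM for wild type and from 31.9 to 63.3 for the knockout.

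Among KIT and EPO signalling genes, which relay the 2 cytokines in the medium, 7 of 23 measured members were above 0 and 3 were at -0.5 or below, with a relative median of -0.05. Fam132b, the EPO-induced hormone erythroferrone, went from 0.961 to 4.70 FPKM in wild type and from 1.09 to 11.3 in the knockout (1.02 ± 0.36). Stat5a, the main signal transducer of the EPO receptor together with Stat5b, went from 61.1 to 38.8 in wild type and from 50.8 to 21.5 in the knockout (-0.56 ± 0.12), while Stat5b had 0.03 ± 0.11. Gab2, an adaptor of both receptors, had -0.52 ± 0.19 and Pim1, a kinase induced by STAT5, 0.14 ± 0.12.

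Genes of the actin cytoskeleton and adhesion had 9 of 29 measured members above 0 and 3 at -0.5 or below, with a relative median of -0.15, or -0.04 without chromosome 5. After Flna came Capg, an actin filament capping protein, going from 40.4 to 32.8 FPKM in wild type and from 29.6 to 12.4 in the knockout (-0.90 ± 0.24). Coro1a, the coronin of blood cells, went from 30.2 to 17.6 in wild type and from 12.3 to 3.57 in the knockout (-0.80 ± 0.31). Coro1a was already lower in the knockout before estradiol, by 1.23. Itgb2, an integrin beta chain, was on the other side (0.51 ± 0.22). Of the tetraspanins, 4 of 8 measured members were above 0. Tspan4 went from 14.5 to 7.47 in wild type and from 16.4 to 1.75 in the knockout (-1.79 ± 0.40), whereas Tspan33, from 10.8 to 29.4 and from 11.3 to 53.6, went the other way. Cd81, another tetraspanin, went from 0.378 to 0.197 FPKM in wild type and from 11.1 to 10.4 in the knockout, a gap of 3.13 and 3.26 at the 2 times that leaves a difference of 0.12 ± 0.41.

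Tubulin and intermediate filament genes, besides Vim, ran in both directions, with 4 of 14 above 0. Tuba4a went from 91.1 to 145 FPKM in wild type and from 92.2 to 242 in the knockout (0.72 ± 0.08), and Tubb2a had 0.80 ± 0.42. The abundant Tuba1b, going from 455 to 416 in wild type and from 432 to 291 in the knockout, had -0.44 ± 0.06 and Tubb5 -0.27 ± 0.04. Lmnb1, a lamin of the nuclear envelope, had -0.48 ± 0.11 and Lmna 0.17 ± 0.08.

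Autophagy and mitophagy genes, through which red cell precursors clear their organelles, were modestly higher as a group: 26 of 30 were above 0, 3 reached 0.5 and the relative median was 0.24. Calcoco1 (0.66 ± 0.39) and Optn (0.56 ± 0.19), autophagy receptors, were at the top. Optn, going from 21.9 to 14.7 FPKM in wild type and from 19.5 to 19.7 in the knockout, was lower at 24 h in wild type and level in the knockout. Tfeb, a transcription factor of lysosome and autophagy genes, was the lowest of the list (-0.50 ± 0.35), and Bnip3 had -0.08 ± 0.08. Lysosome genes had 14 of 22 above 0 and a relative median of 0.22, or 0.07 when members under 1 FPKM are kept, with Ctse, a cathepsin, at -0.64 ± 0.10. Ubiquitin enzymes had 17 of 25 above 0 and a relative median of 0.16. Among them March8, a ubiquitin ligase of membrane receptors, went from 7.56 to 6.53 in wild type and from 6.84 to 10.6 in the knockout (0.75 ± 0.21).

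CDK inhibitors and antiproliferative genes had 14 of 21 above 0, 5 at 0.5 or more and 1 at -0.5 or below, with a relative median of 0.10. Btg2 went from 0.305 to 3.19 FPKM in wild type and from 0.441 to 7.23 in the knockout (0.83 ± 0.36). Cdkn1b, which encodes the inhibitor p27, went from 12.5 to 23.2 in wild type and from 9.78 to 27.1 in the knockout (0.55 ± 0.16). Cdkn1a, which encodes p21, was the reverse (-0.39 ± 0.31), with a knockout level that was higher at 0 h, at 9.47 against 5.56, and closer at 24 h, at 10.8 against 8.71. The p53 targets had 9 of 18 above 0 and a relative median of -0.01, and their median gap was 0.22 at 0 h and 0.21 at 24 h. Mitosis genes had 17 of 30 above 0 (0.04) and DNA replication genes 8 of 35 (-0.07). Mki67, a marker of cycling cells, went from 74.9 to 78.7 in wild type and from 60.8 to 89.0 in the knockout (0.47 ± 0.05).

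Ribosome biogenesis genes, which are lowered as red cell precursors mature, were mostly lower, by a small amount in the median. Of 39 measured members 3 were above 0 and 1 was at -0.5 or below, with a relative median of -0.22. Median responses of the list were -0.53 (wild type) and -0.76 (knockout), and the median gap was -0.05 at 0 h and -0.26 at 24 h. Heatr1, a factor of rRNA processing, went from 49.8 to 29.01 FPKM in wild type and from 46.9 to 19.1 in the knockout (-0.49 ± 0.10). Nle1 had -0.62 ± 0.29, whereas Bysl (0.24 ± 0.16) was the highest of the list. Cytosolic ribosomal proteins had a relative median of -0.03 over the 43 members, with Rps27 and Rps16 farther away. Rps16 went from 300.1 to 951 FPKM in wild type and from 422 to 889 in the knockout (-0.59 ± 0.06). Its responses of 1.66 and 1.07 lay far from the list medians of -0.01 and -0.05. Rps16 was not among the copies summed, so the division of its fragments was not looked at. In the MYC network 5 of 15 were above 0 (-0.05), with Myc itself going from 15.2 to 8.60 in wild type and from 17.8 to 8.40 in the knockout (-0.24 ± 0.25), within its counting half-width. The repressor Mxd1 had 0.53 ± 0.32 and Mnt -0.52 ± 0.33.

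Metabolic and stress genes lay near the median of all genes as lists. The relative median was -0.09 for glycolysis (6 of 19 above 0), 0.00 for cholesterol synthesis (9 of 19), -0.01 for ATF4 and amino acid stress genes (9 of 22), 0.04 for antioxidant enzymes (11 of 22) and -0.13 for the BCL2 family (4 of 11). Single genes stood out within them. Eif2ak1, the heme-regulated kinase that limits globin translation, went from 10.6 to 17.5 FPKM in wild type and from 16.0 to 39.6 in the knockout (0.58 ± 0.16). Hmox1, the heme-degrading oxygenase, went from 9.06 to 15.4 in wild type and from 10.2 to 10.4 in the knockout (-0.69 ± 0.32), being induced in wild type and level in the knockout. Txn1 had -0.58 ± 0.10, Mvk 0.55 ± 0.25 and Bak1, a pore-forming BCL2 relative, -0.33 ± 0.21.

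Chromodomain helicases and RUNX factors had 6 of 12 measured members above 0 and a relative median of 0.00. Cbfb, the partner subunit of all RUNX factors, went from 31.3 to 18.6 FPKM in wild type and from 31.5 to 11.5 in the knockout (-0.65 ± 0.18), the genotypes being equal at 0 h and apart at 24 h. Runx1 went from 5.76 to 6.32 in wild type and from 5.24 to 7.24 in the knockout (0.28 ± 0.21). Chd4, the helicase of the NuRD complex, had -0.32 ± 0.06, and Chd9 and Chd6 had 0.28 ± 0.20 and 0.28 ± 0.16. Replication-dependent histones had 12 of 29 above 0 and a relative median of -0.02. Abundant non-coding RNAs had 6 of 9 above 0 and a relative median of 0.10, with the nuclear RNA Malat1 going from 210.3 to 186 FPKM for wild type and from 234 to 304 for the knockout (0.55 ± 0.04).

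Other genes with a high difference were of several kinds. Slc38a5, an amino acid transporter, went from 0.150 to 3.49 FPKM in wild type and from 0.152 to 10.3 in the knockout (1.33 ± 0.35). Plekho2 went from 0.666 to 4.18 in wild type and from 0.726 to 12.4 in the knockout (1.32 ± 0.34), and Nxpe2 from 1.95 to 3.07 and from 1.94 to 10.8 (1.54 ± 0.33). In these 3 genes the genotypes were level at 0 h and the knockout at 24 h was the highest library. Rogdi (1.46 ± 0.51), Grina (1.29 ± 0.31) and the protein disulfide isomerase Pdia2 (1.43 ± 0.41) started lower in the knockout, by 0.42, 0.53 and 0.47, and ended higher. Cox6b2, an isoform of a cytochrome c oxidase subunit, was listed at 0 at 0 h in wild type and stood at 0.312 at 24 h, and was at 1.75 and 9.24 in the knockout, so it was higher in the knockout at both times.

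At the lower extreme, C2cd4a went from 21.8 to 13.1 FPKM in wild type and from 29.2 to 5.73 in the knockout (-1.48 ± 0.31). Arhgef10l, a guanine nucleotide exchange factor, went from 9.10 to 8.37 in wild type and from 10.2 to 3.62 in the knockout (-1.17 ± 0.22). Both were highest in the knockout at 0 h and lowest in it at 24 h. Akr1b3, aldose reductase, was higher at 24 h in wild type, from 11.4 to 18.1, and lower in the knockout, from 15.7 to 9.53 (-1.29 ± 0.31). Ninj1, a protein of plasma membrane rupture, went from 4.98 to 5.41 in wild type and from 5.07 to 1.87 in the knockout (-1.18 ± 0.50). Cldn3, a claudin, went from 11.1 to 5.06 in wild type and from 30.1 to 6.03 in the knockout, so its -1.14 ± 0.38 came from the start, whereas Ptprcap, a partner of a leukocyte phosphatase, going from 29.8 to 15.8 and from 26.7 to 5.75 (-1.16 ± 0.34), parted at 24 h.

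Apart from small RNA and predicted loci, most of the largest differences belonged to genes with near-identical copies or pseudogenes. The copies were also summed, a step chosen after their values were seen. Amd1 had 3.96, from 14.9 FPKM in wild type at 0 h and at most 0.03 in the other libraries, while Amd1 and Amd2 together had -0.19. Rps27 had 3.56, going from 228 to 82.1 for wild type and from 17.98 to 80.3 for the knockout, while together with Rps27rt it had 0.08. Pisd-ps1 (3.21) and Pisd-ps3 (-1.31) had opposite signs, and the 4 Pisd rows together had -0.08. Apoo-ps had 2.28 alone and 0.16 together with Apoo. Hist1h4n had -10.92, listed at 1942 in wild type at 24 h and near 0 in the other libraries, while the 11 Hist1h4 rows together had -0.31. Hist1h2ap had -3.24 and the 13 Hist1h2a rows together -0.01. In Rps27, Hist1h4n, Hist1h2ap and Amd1 the single row was a small part of the sum, so the sum does not show whether that row changed. How fragments were divided among copies is not given in the sources used here, and these single rows are uncertain for that reason. Lars2, the mitochondrial leucyl-tRNA synthetase, was in none of the families summed, and whether fragments of other origin entered its row was not tested. It went from 27.4 to 9.05 in wild type and from 42.6 to 129.99 in the knockout (3.09 ± 0.14), lower at 24 h in wild type and higher in the knockout.

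By chromosome, the median difference lay between -0.07 and 0.04 over 20 chromosomes. Chromosome 5, which carries Kit, Cldn3, Cldn13 and Atp8a1, stood apart in the gaps but not in their difference. Its 547 genes had a median gap of 0.40 at 0 h and 0.34 at 24 h and a median difference of -0.05, while on the other chromosomes the gap lay between -0.13 and -0.06 at 0 h and between -0.15 and -0.06 at 24 h. Chromosome 5 held 3 of the 42 higher and 2 of the 30 lower genes, against 547 of all 8396 genes apart from small RNA and predicted loci. Nothing is read from these counts. The difference also moved slightly with gene properties: over 5 groups of equal size its median went from 0.04 at the lowest to -0.10 at the highest mean FPKM, from -0.09 for the shortest to 0.05 for the longest transcripts, and from 0.05 for the lowest to -0.09 for the highest GC content. The lower genes past a size of 1 were shorter, with a median transcript of 1486 bases against 2645 for the higher genes and 3048 for all, and their GC content was 56.2%, 53.3% and 49.8% in that order. The part of transcript length and GC content in these differences was not tested.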

How the data were processed

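The authors deposited FPKM, 1 value per gene symbol and library, for 4 ribosomal-RNA-depleted, random-primed libraries. Per the submitters' processing notes, the tools were Cufflinks 2.2.1, TopHat2 2.0.11, cutadapt and FastQC, and the build was GRCm38. How multiply mapped fragments were counted, how libraries were scaled to each other and which annotation served is not stated here. The column of the knockout at 24 h carries a suffix that its description lacks.

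Comparisons use log2(FPKM + 1), on which changes of low genes look smaller than they are, and genes averaging 1 FPKM or more. With 1 library per group there was no test, and a size of 1 on the log2 scale stood in for it. The members, the 34 gene lists (32 with at least 3 measured members) and the rules for naming genes were chosen with earlier results of these data known. Named were the 4 markers, the 15 highest and 15 lowest genes that reach 5 FPKM in a library and are no small RNA or predicted loci, the 5 most abundant of each response class, and up to 4 members at each end of a list. Chosen after their values were seen were Erg, Gata1, Myb, Myc, Pim1, Sptb, Stat5b, Tubb5, the genes at the edges of the size rule and the copies summed. A few results that fall under these rules are not reported here.

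Depth was read from the low FPKM of genes with a single transcript of at least 2000 bases. In the 4 libraries 62.1% to 72.6% of these values were whole fragments within 0.1, against 10.9% to 14.7% for other steps. Half-widths use the step of each library and the length of the longest GENCODE transcript of a gene (protein-coding ones first), known for 99.4% of genes. They cover counting error only and are too narrow where shorter transcripts prevail. The script was tested on simulated data. Positions and promoters are from RefSeq on GRCm38. Alternatives were pseudocounts of 0.1 and 5, other filters and 3 other scalings. Software was matplotlib 3.10.9, scipy 1.17.1, pandas 2.3.3 and numpy 2.4.6 under Python 3.11.15.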

Additional observations from a re-analysis of the deposited data

Results flagged for a closer look

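Among the genes named for their rank, 6 had responses of opposite sign in the genotypes. Their differences of responses were 3.56 for Rps27, 3.21 for Pisd-ps1, 3.09 for Lars2, -10.92 for Hist1h4n, -1.29 for Akr1b3 and -1.18 for Ninj1. Hist1h4n in the knockout and Pisd-ps1 in wild type were near 0 FPKM at both times, so no decrease was seen there. With 1 library per group the difference was not tested. Rps27, Pisd-ps1 and Hist1h4n have near-identical copies, whose sums had differences of 0.08, -0.08 and -0.31 without showing whether the single rows changed. No group had enough libraries to look for a library that stands apart within it.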

How the results depend on the processing

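No paired analysis was possible because each group has 1 library and no result comes from a test. For the same reason no replicate could be left out. Genes with a difference of at least 1 numbered 54, and those at -1 or below 56. With a pseudocount of 0.1 FPKM these counts were 113 and 111, with 5 FPKM 19 and 33, and with TPM 1332 and 24. A mean of at least 5 FPKM left 28 higher genes, and leaving out small RNA and predicted loci left 30 lower ones. No filter, median centring, upper-quartile scaling and leaving out chromosome 5 kept both counts within 1.5 times. Relative to the median of all genes, 0 of the named genes changed sign in the 9 settings. They numbered 45, but 29 with a mean of at least 5 FPKM and 41 without chromosome 5. Most were named for the size of their difference, so a change of sign was unlikely from the outset. Of the lists with a relative median beyond 0.1 in size, 1 changed sign. It was that of eosinophil and granulocyte markers, at 0.12 as reported and -0.11 with a pseudocount of 0.1 FPKM. The relative median of the mast cell list ran from -1.01 to -0.05, that of heme synthesis from 0.41 to 0.52 and that of membrane genes from 0.27 to 0.38. That of lysosome genes ran from 0.07 with no filter to 0.23, and that of actin and adhesion genes was -0.04 without chromosome 5. By 0.1 or more on the log2 scale, 32 named genes moved with a pseudocount of 0.1 FPKM, 40 with 5 FPKM and 19 with TPM, such as Cox6b2 (1.53 to 0.32 with 0.1 FPKM) and Fbxo36 (-1.10 to -0.51 with 5 FPKM). The cause of these shifts was not tested. Dmtn ranged from 0.65 to 1.60, Csf2rb2 from 1.83 to 2.23, Flna from -1.67 to -1.08 and Kit from -0.86 to -0.76. Depth limits low genes most: the median half-width was 0.34 in the lowest of 5 groups by mean FPKM and 0.11 in the highest.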
